A study of Homo sapiens with 9 samples.

Results

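The unfolded protein response and ER chaperone genes are 37 genes picked by name from the 61155 gene symbols counted in each library, and all 37 were found in the tables. They encode ER chaperones and their partners, the machinery of ER-associated degradation, and the sensors, transcription factors and targets of the ATF6, IRE1-XBP1 and PERK-ATF4 branches of the response. The 37 genes, called members below, were chosen with earlier results of these data known. Their shares beside those of all tested genes therefore describe the list and are no independent support. The cells were MDA-MB-231, an established basal-like human breast cancer line, and total RNA was sequenced. KO1 and KO2 are 2 clones in which FBXL12 was knocked out, with 3 libraries each, and WT is FBXL12-WT cells transduced with a scrambled control guide RNA, also with 3 libraries. FBXL12 encodes an F-box protein, the substrate-recognising part of an SCF ubiquitin ligase. Each clone goes back to 1 cell, the genotype was therefore sampled in 2 clones against 1 control population, and no stress-inducing drug is named in the labels. The labels number the libraries within a group without stating what a number stands for, such as a separate culture. The p-values below therefore rest on library-to-library spread alone, part or all of which may be technical.

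The ER folds and glycosylates proteins that are bound for the membrane or for secretion. When unfolded proteins accumulate in it, 3 membrane sensors respond. ATF6 is cut and its released part acts as a transcription factor. IRE1, encoded by ERN1, splices the XBP1 mRNA so that it encodes an active factor, and PERK, encoded by EIF2AK3, phosphorylates eIF2-alpha, which raises translation of ATF4. Targets of these factors include chaperones that widen folding capacity, components that carry misfolded proteins out of the ER for degradation, and, under lasting stress, pro-apoptotic genes. The counts are per gene, so XBP1 splicing, ATF6 cleavage and eIF2-alpha phosphorylation were not measured.

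ATF6 acts through short promoter elements together with the CCAAT-binding factor NF-Y, and the promoters of the members were searched for these. The ER stress response element ERSE was searched as CCAAT, a spacer of 9 bases of any kind and CCACG. ERSE-II was searched as ATTGG, a spacer of 1 base and CCACG, the XBP1-binding element UPRE as TGACGTGG and the ATF4-binding element CARE as TGATGNAA, each on both strands and with no mismatch. The window was the 250 bases before each RefSeq start (GRCh38.p14), and 34 of the 37 members had an entry. ERSE was found at 7 of 34 members (20.6%), namely HSPA5, HSP90B1, PDIA6, CALR, CANX, CRELD2 and XBP1, against 0.0747% of all 34788 distinct windows. ERSE-II was found at 3 members (8.82%), HYOU1, SDF2L1 and HERPUD1, against 0.0517% of all windows. UPRE was found at HYOU1 and DNAJC10 (5.88%, against 0.618% of all windows), and CARE at HERPUD1, ATF3 and CHAC1 (8.82%, against 3.16%). A member was counted if any of its windows matched, whereas the shares of all are per window. PDIA6, CANX and XBP1 had several windows, and only some of these held the ERSE. The shares of members and of windows are therefore not like for like. ERSE is known from the promoters of several of these chaperones, so a high share among them is no independent result, and a match does not show that a factor was bound. The promoters of HSPA5 and HYOU1 are shown because the first carried the classical ERSE and the second carried 2 copies of ERSE-II, and because both genes rose in KO1 but moved in opposite directions in KO2. They run 5′ to 3′ on the gene's strand, the 200 bases before the start, with the matched elements in capitals. HSPA5 is from chr9:125241344-125241543 and HYOU1 from chr11:119057206-119057405, both on the minus strand.
HSPA5: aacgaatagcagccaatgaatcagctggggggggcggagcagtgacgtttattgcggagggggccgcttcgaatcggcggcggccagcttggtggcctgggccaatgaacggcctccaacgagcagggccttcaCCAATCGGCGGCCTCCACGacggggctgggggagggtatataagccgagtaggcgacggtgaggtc
HYOU1: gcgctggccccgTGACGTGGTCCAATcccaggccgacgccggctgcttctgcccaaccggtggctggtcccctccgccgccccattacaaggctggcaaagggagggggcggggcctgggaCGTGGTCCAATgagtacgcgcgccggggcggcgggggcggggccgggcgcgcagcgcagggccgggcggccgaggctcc
In HYOU1 the distal ERSE-II and the UPRE overlap and make up 1 run of capitals. For other members with an element, 30 bases around each element are shown in the same way. The elements of PDIA6, CANX, DNAJC10 and ATF3 are not printed.
HSP90B1, distal ERSE (chr12:103930211-103930240, plus strand): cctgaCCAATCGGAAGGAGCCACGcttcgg
HSP90B1, proximal ERSE (chr12:103930316-103930345, plus strand): gggtgCGTGGTGCGGCGCGATTGGtgggtt
CALR, ERSE (chr19:12938379-12938408, plus strand): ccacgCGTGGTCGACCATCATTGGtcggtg
XBP1, ERSE (chr22:28800597-28800626, minus strand): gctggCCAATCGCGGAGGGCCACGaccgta
CRELD2, ERSE (chr22:49918549-49918578, plus strand): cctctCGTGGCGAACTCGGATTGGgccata
SDF2L1, ERSE-II (chr22:21642105-21642134, plus strand): cctcggaagCGTGGACCAATcaaaaccctc
HERPUD1, ERSE-II (chr16:56932016-56932045, plus strand): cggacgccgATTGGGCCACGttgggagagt
HERPUD1, CARE (chr16:56931955-56931984, plus strand): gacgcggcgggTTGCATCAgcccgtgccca
CHAC1, CARE (chr15:40953251-40953280, plus strand): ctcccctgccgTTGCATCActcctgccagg
These members return below with their RNA levels.

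Total counts per library ran from 77636004 to 87084329 in KO1, from 52427841 to 65630781 in KO2 and from 61685262 to 97243363 in WT. Levels are given in CPM, counts scaled to a common library size after TMM normalization, and compare libraries for 1 gene, not genes of different length. The targeted gene FBXL12 was at 9.56, 9.95 and 9.40 CPM in KO1, at 6.14, 6.36 and 5.33 CPM in KO2 and at 22.2, 23.3 and 21.4 CPM in WT, with log2 changes of -1.21 ± 0.08 in KO1 (SE, adjusted p = 2.65e-08) and -1.91 ± 0.08 in KO2 (adjusted p = 7.29e-11). Its mRNA was lower in every knockout library and was still detected, and counts per gene do not show the edit. All 10 genes fixed as typical of this line were detected and together summed to 10740 to 10950 CPM in KO1, 11430 to 11560 CPM in KO2 and 9689 to 10230 CPM in WT. They went both ways, with 5 higher and 2 lower in KO1 and 4 higher and 3 lower in KO2, down to -1.81 for S100A4 in KO2. Of 9 luminal epithelial genes, the defining PGR was at 0 in every library and ESR1 averaged at most 0.0917 CPM. The 9 genes together, KRT8 and KRT18 included, summed to 780.8 to 890.8 CPM in KO1, 818.9 to 881.5 CPM in KO2 and 915.4 to 1032 CPM in WT. Of the 6 luminal genes tested, 1 rose and 3 fell in KO1, the rise being EPCAM at 1.34, and 5 fell in KO2. The 6 plasma cell genes, of a secretory cell with a high demand on this pathway, summed to 120.6 to 156.4 CPM in KO1, 77.2 to 93.3 CPM in KO2 and 114.8 to 136.8 CPM in WT, nearly all from SDC1, while JCHAIN, TNFRSF17, MZB1 and IRF4 averaged 0.0685 CPM or less in each group. The 6 fibroblast genes summed to 2.56 to 3.58 CPM in KO1, 2.52 to 2.87 CPM in KO2 and 3.39 to 4.59 CPM in WT, with LUM at 0. The 5 endothelial genes summed to 21.8 to 22.4 CPM in KO1, 18.99 to 21.6 CPM in KO2 and 14.8 to 15.7 CPM in WT, nearly all from KDR. The part of these markers in the changes below was not tested.

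**Figure D1:**
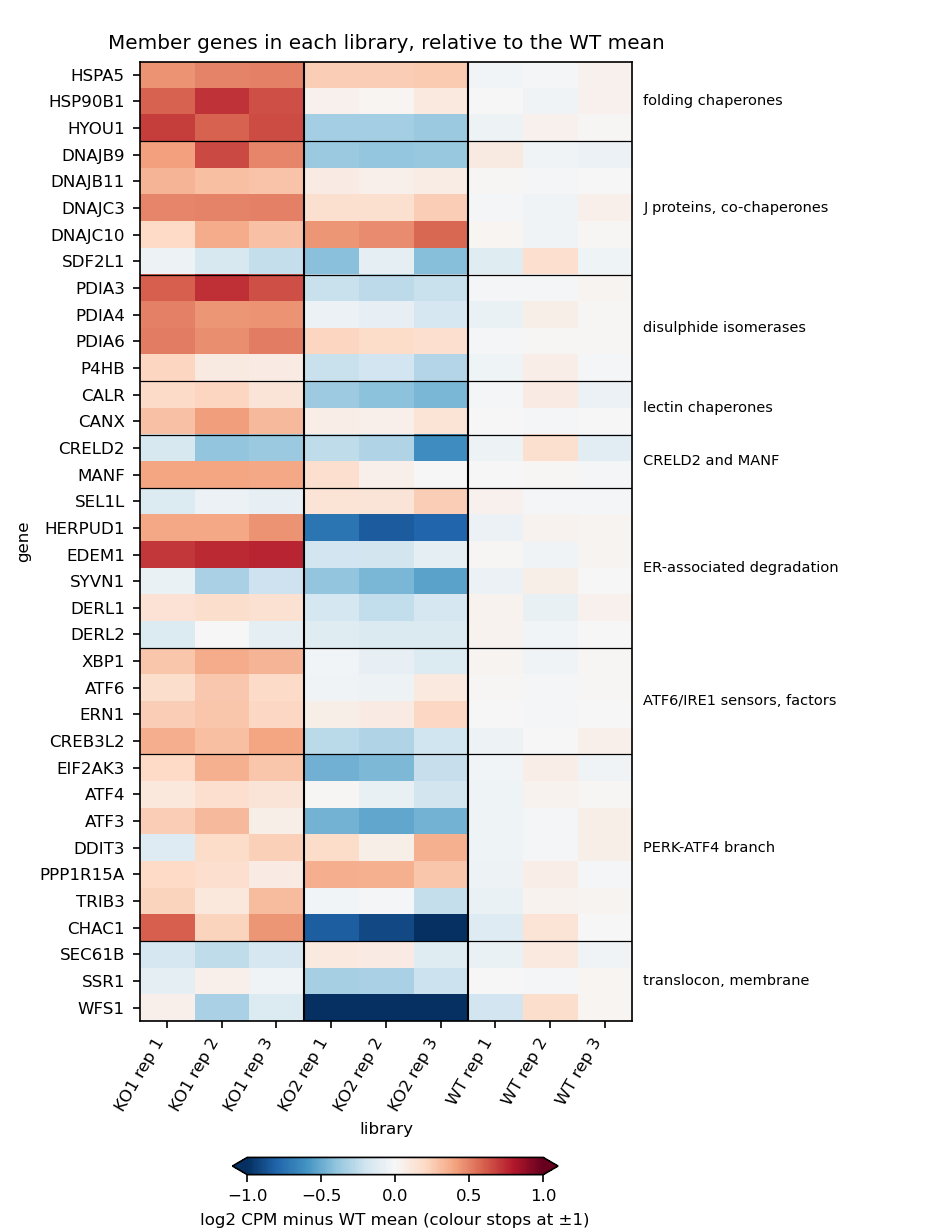
Log2 CPM of each tested member gene in each of the 9 libraries, minus the mean of the 3 WT libraries; red is higher and blue lower than WT, rows are grouped by role and colour stops at a difference of 1. Most rows were red in all 3 KO1 libraries, whereas the KO2 libraries held both colours, with WFS1 and CHAC1 the darkest blue.

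KO1 was compared with WT to ask how the response genes stood in the first clone. Of the 36 members tested, 26 rose, 3 fell and 7 did not pass the test (Benjamini-Hochberg adjusted p under 0.05 in edgeR's quasi-likelihood test over all 17759 tested genes). Calls in either direction made up 34.8% of all tested genes. The share of members that rose was 72.2%, beside 18.0% of all tested genes, and the share that fell was 8.33%, beside 16.8% of all. The median log2 change of the members was 0.26, and that of all tested genes was 0.00. The changes were moderate, from -0.31 for CRELD2 to 0.74 for EDEM1, and none reached 1 on the log2 scale. In 27 members all KO1 libraries lay above all WT libraries and in 4 they lay below, together 86.1% of the members, beside 46.5% of all tested genes. Here and below, the shares of all tested genes were not matched to the members for level. Mean log2 CPM was at least 2.70 in every tested member, while genes as low as -2.34 were also among those tested. The 37th gene, DERL3, had between 1 and 8 counts per library and was not tested.

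KO2, compared with WT in the same fit, gave a different picture. There 6 members rose, 18 fell and 12 did not pass the test. Calls in either direction made up 49.4% of all tested genes. The 50% of members that fell stand beside 24.7% of all tested genes, and the 16.7% that rose also beside 24.7%. The median change of the members was -0.12, beside -0.01 for all tested genes. All KO2 libraries lay above all WT libraries in 10 members and below them in 17, together 75% of the members, beside 58.8% of all tested genes. The changes ran from -1.30 for WFS1 to 0.50 for DNAJC10. Both comparisons use the same 3 WT libraries, so the 2 clones' changes are not independent of each other.

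KO1 set directly against KO2 tests whether the clones differ. The WT mean does not enter this difference, but the WT libraries share the scaling, the filter and the estimate of spread. In this contrast 27 members were higher in KO1, 4 were lower and 5 did not pass the test. Calls in either direction made up 48.9% of all tested genes. The 75% of members that were higher stand beside 23.9% of all tested genes, and the 11.1% that were lower beside 24.9%. The median difference of the members was 0.31 on the log2 scale, beside -0.01 for all tested genes. In 28 members the KO1 libraries all lay above the KO2 libraries and in 4 all below, together 88.9%, beside 55.1% of all tested genes. In bulk RNA a higher level in each cell and a larger share of cells with a high level cannot be told apart.

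The chaperones that bind unfolded chains directly rose in KO1, all 3 of them, and in KO2 1 rose and 1 fell. Counts for this and the following roles stand beside 18.0% of all tested genes higher and 16.8% lower in KO1, and 24.7% each way in KO2. HSPA5 encodes BiP, the ER HSP70 chaperone that also keeps the 3 sensors inactive when bound to them. It was at 940.4, 968.5 and 973.2 CPM in KO1, at 815.1, 817.6 and 825.3 CPM in KO2, and at 673.5, 681.9 and 709.5 CPM in WT. The 3 groups did not overlap. Its log2 change was 0.48 ± 0.04 in KO1 (SE, adjusted p = 1.2e-07) and 0.25 ± 0.04 in KO2 (adjusted p = 3.09e-05), and KO1 lay above KO2 by 0.23 ± 0.04 (adjusted p = 6.55e-05).

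HSP90B1, which encodes the ER HSP90 chaperone GRP94, was at 1263, 1385 and 1311 CPM in KO1, at 863.9, 853.1 and 898.2 CPM in KO2, and at 835.1, 817.4 and 866.5 CPM in WT. All KO1 libraries lay above both other groups, while KO2 and WT overlapped. It rose by 0.65 ± 0.04 in KO1 (adjusted p = 2.77e-08). In KO2 the change was 0.05, with an interval from -0.04 to 0.14 (adjusted p = 0.308). HYOU1, which encodes a large HSP70-type chaperone that acts as a nucleotide exchange factor for BiP, was at 446.2, 416.2 and 434.0 CPM in KO1, at 218.6, 218.5 and 214.2 CPM in KO2, and at 266.8, 284.9 and 278.1 CPM in WT. Its groups were fully apart, with KO1 highest and KO2 lowest. It rose by 0.64 ± 0.04 in KO1 (adjusted p = 2.04e-08) and fell in KO2, with a change of -0.35 ± 0.04 (adjusted p = 3.47e-06), which left KO1 0.99 above KO2 on the log2 scale (adjusted p = 2.65e-11). HSPA5, HSP90B1 and HYOU1 together summed to 2712 ± 60.6 CPM in KO1 (SD, n = 3), 1908 ± 25.9 CPM in KO2 and 1805 ± 43.1 CPM in WT.

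J proteins deliver clients to BiP and stimulate its ATPase, and 4 of the 5 genes in this group rose and 0 fell in KO1, while 2 rose and 2 fell in KO2. DNAJB9, which encodes ERdj4, a repressor of IRE1 in addition to its role in degradation, was at 19.1, 22.7 and 20.1 CPM in KO1, at 11.1, 10.9 and 11.0 CPM in KO2, and at 15.3, 14.03 and 13.8 CPM in WT. The 3 groups did not overlap. It rose by 0.52 ± 0.08 in KO1 (adjusted p = 8.62e-05) and fell in KO2, at -0.38 ± 0.08 (adjusted p = 0.000736). DNAJC3, which encodes the co-chaperone p58IPK, rose in each clone, by 0.49 in KO1 (adjusted p = 9.18e-07) and by 0.19 in KO2 (adjusted p = 0.00268). DNAJB11, which encodes ERdj3, rose by 0.31 in KO1 (adjusted p = 5.09e-05) and was at 0.07 in KO2 (adjusted p = 0.206).

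DNAJC10, which encodes the disulphide reductase ERdj5, was the member of this group that stood higher in KO2 than in KO1. Its level was 192.4, 216.8 and 205.1 CPM in KO1, 227.8, 232.6 and 249.4 CPM in KO2, and 170.5, 163.5 and 169.6 CPM in WT. It rose by 0.29 ± 0.05 in KO1 (adjusted p = 0.000343) and by 0.50 ± 0.05 in KO2 (adjusted p = 7.15e-07). SDF2L1, which encodes a partner of ERdj3 and carries the ERSE-II shown above, was at 6.95, 6.45 and 6.11 CPM in KO1, at 5.39, 6.75 and 5.34 CPM in KO2, and at 6.62, 8.09 and 6.99 CPM in WT. It overlapped between WT and each clone. Its change in KO1 was -0.15 (adjusted p = 0.317), and its call in KO2, at -0.31 (adjusted p = 0.0342), was lost without KO2 replicate 1 (-0.26), KO2 replicate 3 (-0.25), WT replicate 2 (-0.22) or WT replicate 3 (-0.33). SDF2L1 also lost the KO2 call with upper quartile scaling. With the GC trend of each library removed, its KO2 value was 0.15 (adjusted p = 0.185).

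Protein disulphide isomerases form and rearrange disulphide bonds, and all 4 of their genes rose in KO1, while 1 rose and 2 fell in KO2. PDIA3, which encodes ERp57, the isomerase that works with calnexin and calreticulin, was at 654.4, 718.7 and 675.4 CPM in KO1, at 371.3, 359.9 and 369.8 CPM in KO2, and at 428.9, 426.5 and 441.6 CPM in WT. KO1 lay above and KO2 below every WT library. The changes were 0.66 ± 0.04 in KO1 (adjusted p = 1.92e-08) and -0.24 ± 0.04 in KO2 (adjusted p = 0.000184). PDIA6, which encodes P5, rose by 0.50 in KO1 (adjusted p = 8.46e-08) and by 0.19 in KO2 (adjusted p = 0.000471). PDIA4, which encodes ERp72, rose by 0.47 in KO1 (adjusted p = 1.24e-06) and was at -0.10 in KO2, where the call was missed (adjusted p = 0.0612) but was made without KO1 replicate 2 (-0.11), KO2 replicate 1 (-0.13) or WT replicate 1 (-0.13). The KO2 call was also made with no filter on low counts and when only the 2 groups compared were fitted.

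P4HB, which encodes the founding member PDI, was at 621.1, 567.3 and 566.3 CPM in KO1, at 458.0, 466.9 and 435.7 CPM in KO2, and at 517.9, 559.0 and 527.2 CPM in WT. Its rise in KO1 was small, at 0.13 ± 0.05 (adjusted p = 0.0411), and the call was lost without KO1 replicate 1 (0.10), KO2 replicate 1 (0.13), WT replicate 1 (0.12) or WT replicate 3 (0.13). With the GC trend removed the KO1 value was 0.31 (adjusted p = 5.25e-08). Its fall in KO2, at -0.24 (adjusted p = 0.000567), shrank to -0.05 under the same removal (adjusted p = 0.188). The 4 isomerase genes summed to 2027 ± 23.9 CPM in KO1, 1390 ± 27.4 CPM in KO2 and 1510 ± 32.8 CPM in WT (SD, n = 3 each).

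The lectin chaperones calnexin and calreticulin hold glycoproteins until they are folded. Both of their genes rose in KO1, and 1 fell in KO2. CALR, which encodes calreticulin, was at 1300, 1321 and 1248 CPM in KO1, at 885.4, 859.1 and 832.2 CPM in KO2, and at 1124, 1206 and 1092 CPM in WT. No group overlapped another, with KO1 highest and KO2 lowest. It rose by 0.18 ± 0.04 in KO1 (adjusted p = 0.00522) and fell in KO2, at -0.41 ± 0.04 (adjusted p = 1.56e-06). CANX, which encodes calnexin, averaged 2319 ± 101 CPM in KO1, 1939 ± 63.0 CPM in KO2 and 1825 ± 11.5 CPM in WT (SD, n = 3 each). It rose by 0.35 in KO1 (adjusted p = 1.05e-05), and its value of 0.09 in KO2 missed the threshold (adjusted p = 0.0813) although the KO2 libraries lay above the WT libraries. Per kilobase of exon, CALR had the highest level of the members in each group, at 678 FPKM in KO1, 451 FPKM in KO2 and 599.5 FPKM in WT, and among tested members ERN1 had the lowest in KO1 and WT, at 2.73 and 2.30 FPKM, against 2.501 FPKM in KO2, where ATF3 and CHAC1 lay below it.

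**Figure D2:**
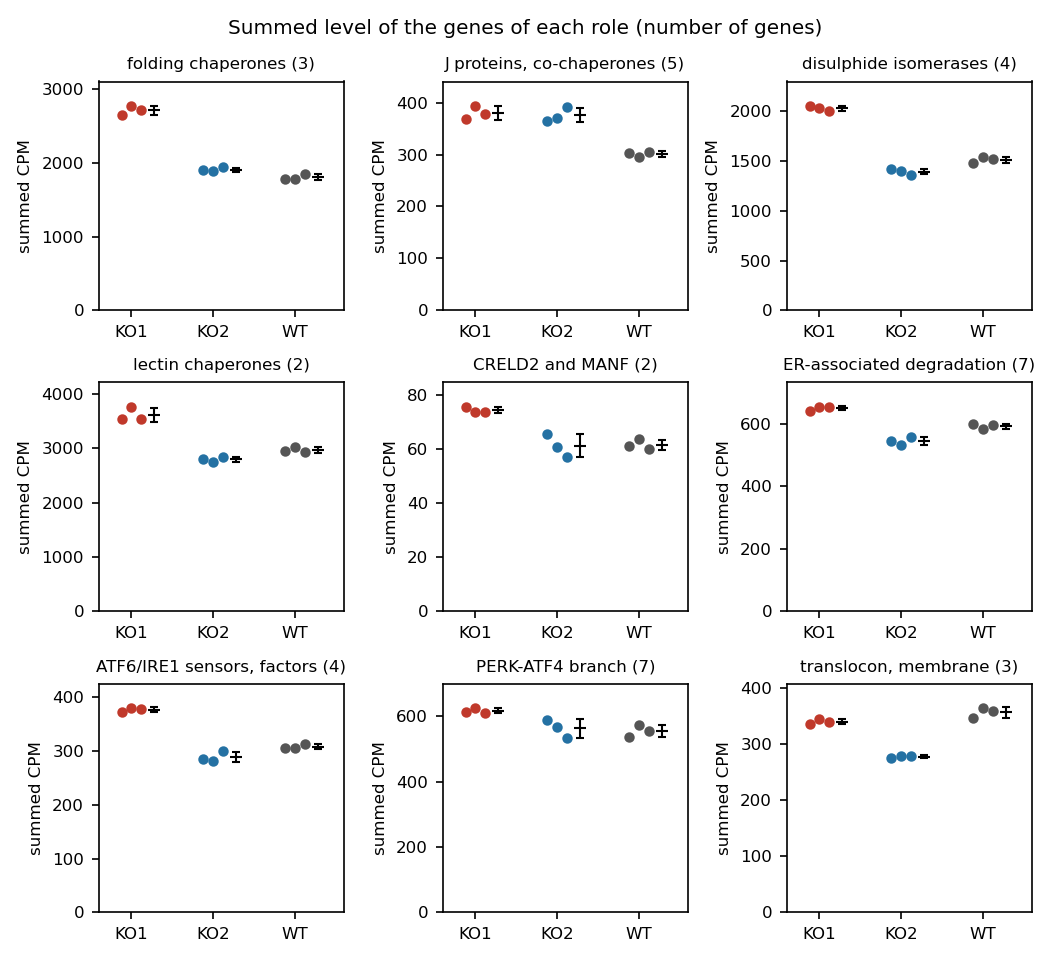
Summed CPM of the genes of each role, 1 dot per library, with the mean and SD of 3 libraries beside the dots; the number of genes is in brackets and each axis starts at 0. Folding chaperones were at 2712 CPM in KO1, 1908 CPM in KO2 and 1805 CPM in WT, whereas translocon and membrane genes were at 340.4, 278.0 and 357.0 CPM.

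MANF and CRELD2 encode small ER proteins that are also secreted under ER stress, and they moved differently in KO1. MANF, a neurotrophic factor, was at 64.1, 64.1 and 63.9 CPM in KO1, at 54.8, 50.5 and 48.7 CPM in KO2, and at 49.0, 49.3 and 48.1 CPM in WT. Its KO1 libraries were all above the others, and it rose by 0.39 ± 0.05 there (adjusted p = 2.27e-05), beside 0.07 in KO2 (adjusted p = 0.247). CRELD2 was at 11.4, 9.68 and 9.87 CPM in KO1, at 10.7, 10.4 and 8.29 CPM in KO2, and at 12.3, 14.3 and 11.8 CPM in WT. It fell in KO2, at -0.39 (adjusted p = 0.007), and in KO1, at -0.31 (adjusted p = 0.0318), where the call was lost without KO1 replicate 2 (-0.26), KO1 replicate 3 (-0.27), WT replicate 1 (-0.32) or WT replicate 2 (-0.22). CRELD2 carries the ERSE printed above, as do HSP90B1 and XBP1, which rose in KO1.

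ER-associated degradation moves misfolded proteins to the cytosol for the proteasome, and 3 of its 6 tested genes rose and 1 fell in KO1, while 1 rose and 5 fell in KO2. EDEM1, which encodes a lectin-like factor that marks misfolded glycoproteins for disposal, had the highest change of all members in KO1. It was at 125.9, 128.8 and 130.7 CPM in KO1, at 67.6, 67.6 and 71.9 CPM in KO2, and at 77.5, 75.0 and 78.4 CPM in WT. It rose by 0.74 ± 0.04 in KO1 (adjusted p = 9.58e-09) and fell in KO2, at -0.16 ± 0.04 (adjusted p = 0.00724). HERPUD1, which encodes a membrane protein that organises the HRD1 ligase complex and carries both an ERSE-II and a CARE in its promoter, was at 63.9, 63.8 and 66.7 CPM in KO1, at 29.3, 27.4 and 28.1 CPM in KO2, and at 46.8, 50.0 and 49.7 CPM in WT. It was far apart in the clones. It rose by 0.41 ± 0.05 in KO1 (adjusted p = 1.45e-05) and fell in KO2, at -0.79 ± 0.05 (adjusted p = 6.63e-09), and the difference between the clones was 1.20 ± 0.05 (adjusted p = 4.08e-11).

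The HRD1 ligase itself, encoded by SYVN1, fell in KO2, at -0.46 ± 0.06 (adjusted p = 2.15e-05). Its level was 67.6, 56.5 and 61.2 CPM in KO1, 54.0, 51.6 and 48.9 CPM in KO2, and 67.9, 73.8 and 70.8 CPM in WT. In KO1 it was called lower, at -0.20 (adjusted p = 0.0237), but the call was lost without KO1 replicate 2 (-0.13), KO1 replicate 3 (-0.18), WT replicate 2 (-0.15) or WT replicate 3 (-0.18), and with the GC trend removed (-0.07). SEL1L, its adaptor, was the only one of these 6 members to rise in KO2, by 0.17 (adjusted p = 0.00373), and was at -0.09 in KO1 (adjusted p = 0.114, and a fall of -0.18 with the GC trend removed). DERL1, a derlin of the retrotranslocation channel, rose by 0.16 in KO1 (adjusted p = 0.0111), a call lost without WT replicate 2 (0.13) and kept at 0.10 with the GC trend removed, and fell in KO2, at -0.20 (adjusted p = 0.00153). DERL2 was at -0.07 in KO1 (adjusted p = 0.233, and -0.16 with a call when the GC trend was removed) and at -0.14 in KO2 (adjusted p = 0.0239), a call lost without KO2 replicate 2 (-0.14), WT replicate 1 (-0.12) or WT replicate 3 (-0.14). The KO2 call of DERL2 was also lost with upper quartile scaling.

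All 4 genes of the ATF6 and IRE1 branches themselves, sensors as well as factors, rose in KO1, and 1 fell in KO2. XBP1 mRNA was at 79.7, 84.7 and 82.9 CPM in KO1, at 64.2, 61.9 and 59.8 CPM in KO2, and at 66.7, 64.0 and 66.1 CPM in WT. It rose by 0.33 ± 0.05 in KO1 (adjusted p = 5.27e-05) and was at -0.08 in KO2 (adjusted p = 0.15, or -0.13 with a call when the GC trend was removed). The sensor genes ATF6 and ERN1 rose by 0.21 ± 0.05 (adjusted p = 0.00248) and 0.24 ± 0.06 (adjusted p = 0.0039) in KO1. In KO2 ATF6 was at 0.00, with an interval from -0.10 to 0.10, and ERN1 at 0.12 (adjusted p = 0.099), which passed with upper quartile scaling (0.16) and with the GC trend removed (0.13). The ERN1 levels of the clones, 26.7, 27.3 and 26.1 CPM in KO1 and 23.5, 23.9 and 26.1 CPM in KO2, differed by 0.12 (adjusted p = 0.0871). The call was made without KO2 replicate 3 (0.17) and with the GC trend removed (0.14). CREB3L2, a membrane-bound transcription factor related to ATF6, was at 140.3, 134.3 and 143.7 CPM in KO1, at 90.5, 88.6 and 95.2 CPM in KO2, and at 105.4, 109.3 and 112.8 CPM in WT. It rose by 0.35 in KO1 (adjusted p = 2.59e-05) and fell in KO2, at -0.26 (adjusted p = 0.000252).

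Of the 7 genes of the PERK-ATF4 branch, 5 rose and 0 fell in KO1, while 1 rose and 3 fell in KO2. CHAC1, which encodes a glutathione-degrading enzyme induced through ATF4, was at 14.1, 10.8 and 12.6 CPM in KO1, at 5.20, 4.94 and 3.53 CPM in KO2, and at 8.45, 10.2 and 9.21 CPM in WT. Its 3 groups were apart. It fell in KO2, at -1.03 ± 0.14 (adjusted p = 4.4e-05), and KO1 exceeded KO2 by 1.46 ± 0.14 (adjusted p = 1.27e-06). Its rise in KO1, 0.43 ± 0.13 (adjusted p = 0.023), was lost without KO1 replicate 1 (0.35), KO1 replicate 3 (0.44), WT replicate 1 (0.38) or WT replicate 3 (0.44). With the GC trend removed the changes were 0.71 in KO1 and -0.68 in KO2, both called.

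PPP1R15A, which encodes GADD34, the phosphatase subunit that reverses PERK signalling, rose in each clone and stood higher in KO2 than in KO1. It was at 167.6, 163.6 and 154.2 CPM in KO1, at 187.6, 186.0 and 176.2 CPM in KO2, and at 140.5, 152.6 and 144.1 CPM in WT. It rose by 0.33 ± 0.05 in KO2 (adjusted p = 2.56e-05) and by 0.15 ± 0.05 in KO1 (adjusted p = 0.0192, lost without WT replicate 1 at 0.14), and both were higher with the GC trend removed, at 0.53 in KO2 and 0.34 in KO1. ATF3, a factor induced downstream of ATF4, was at 8.59, 9.07 and 7.55 CPM in KO1, at 5.20, 5.04 and 5.20 CPM in KO2, and at 7.03, 7.14 and 7.54 CPM in WT. It fell in KO2, at -0.49 ± 0.09 (adjusted p = 0.000407), and was at 0.22 in KO1 (adjusted p = 0.0743), which passed without KO1 replicate 3 (0.30).

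The PERK gene EIF2AK3 rose by 0.28 in KO1 (adjusted p = 0.0111) and fell in KO2, at -0.38 (adjusted p = 0.000801). ATF4 mRNA was at 369.8, 385.6 and 376.3 CPM in KO1, at 347.0, 326.2 and 302.7 CPM in KO2, and at 333.1, 352.2 and 346.5 CPM in WT. Its call in KO1, at 0.13 (adjusted p = 0.0386), was lost without KO1 replicate 2 (0.12), KO1 replicate 3 (0.15), WT replicate 1 (0.13) or WT replicate 3 (0.15), but with the GC trend removed it was 0.27 and called. In KO2 ATF4 was at -0.08 (adjusted p = 0.174), called lower without KO2 replicate 1 (-0.14). With the GC trend removed its KO2 value was 0.05 without a call. TRIB3, a pseudokinase induced through ATF4 and CHOP, was called higher in KO1 at 0.22 (adjusted p = 0.0286), but not without KO1 replicate 3 (0.18) or WT replicate 1 (0.20), and with the GC trend removed it was 0.46 and called. In KO2 TRIB3 was at -0.09 (adjusted p = 0.33), and it was called higher, at 0.19, with the GC trend removed. DDIT3, which encodes the pro-apoptotic factor CHOP, was at 7.77, 9.68 and 10.0 CPM in KO1, at 9.68, 8.89 and 10.9 CPM in KO2, and at 8.25, 8.42 and 8.88 CPM in WT. It did not pass in either clone, with changes of 0.11 in KO1 (interval -0.11 to 0.33) and 0.21 in KO2 (interval -0.02 to 0.43).

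Of the 3 genes of the translocon and of the ER membrane, 0 rose and 1 fell in KO1, and 2 fell in KO2. WFS1, which encodes wolframin, an ER membrane protein that acts in calcium balance, had the lowest KO2 value of all members. It was at 60.4, 46.5 and 53.2 CPM in KO1, at 24.98, 26.3 and 19.9 CPM in KO2, and at 51.1, 65.8 and 59.1 CPM in WT. KO1 and WT overlapped, and KO2 was below both. WFS1 fell in KO2, at -1.30 ± 0.14 (adjusted p = 0.000104), and was at -0.14 in KO1 (adjusted p = 0.497). SSR1, a subunit of the translocon-associated complex, fell in KO2, at -0.29 (adjusted p = 8.69e-05), and was at -0.03 in KO1 (adjusted p = 0.674, or -0.10 with a call when the GC trend was removed). SEC61B, a subunit of the protein channel, was at 0.02 in KO2 (adjusted p = 0.799). It was called lower in KO1, at -0.20 (adjusted p = 0.0256), and the call was lost without KO1 replicate 2 (-0.16), KO1 replicate 3 (-0.20), WT replicate 2 (-0.13) or WT replicate 3 (-0.20).

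To set the branches side by side, target genes were assigned to the branch usually held to drive them, although many respond to more than 1 factor. The counts here, also those by promoter, stand beside 18.0% of all tested genes called higher and 16.8% lower in KO1. In KO2 24.7% were called each way. Of 11 ATF6 targets, 8 rose and 1 fell in KO1 (median 0.41), whereas 3 rose and 5 fell in KO2 (median -0.10). Of the 9 XBP1 targets tested, 5 rose and 2 fell in KO1 (median 0.16), and 1 rose and 6 fell in KO2 (median -0.16). Of 5 PERK-ATF4 targets, 3 rose and 0 fell in KO1 (median 0.22), and 1 rose and 2 fell in KO2 (median -0.09). In KO2 27.3% of ATF6 targets and 20% of PERK-ATF4 targets rose, near the share of all tested genes, and 11.1% of XBP1 targets. With the GC trend removed, the KO1 medians were 0.42, 0.10 and 0.34, with 8, 5 and 3 members higher and 2, 3 and 0 lower in the order ATF6, XBP1 and PERK-ATF4. The KO2 medians were then 0.01, -0.20 and 0.19, with 3, 1 and 2 members higher and 4, 6 and 2 lower in the same order. Shares of all tested genes with the GC trend removed are not given here. These are descriptions, and differences between the branches were not tested. Split instead by promoter, the 10 members with an ERSE or ERSE-II had 8 that rose and 1 that fell in KO1 (median 0.38) and 2 that rose and 5 that fell in KO2 (median -0.19). The 24 tested members with a promoter entry and neither element had 16 and 2 in KO1 (median 0.22), and 4 and 11 in KO2 (median -0.10).

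**Figure D3:**
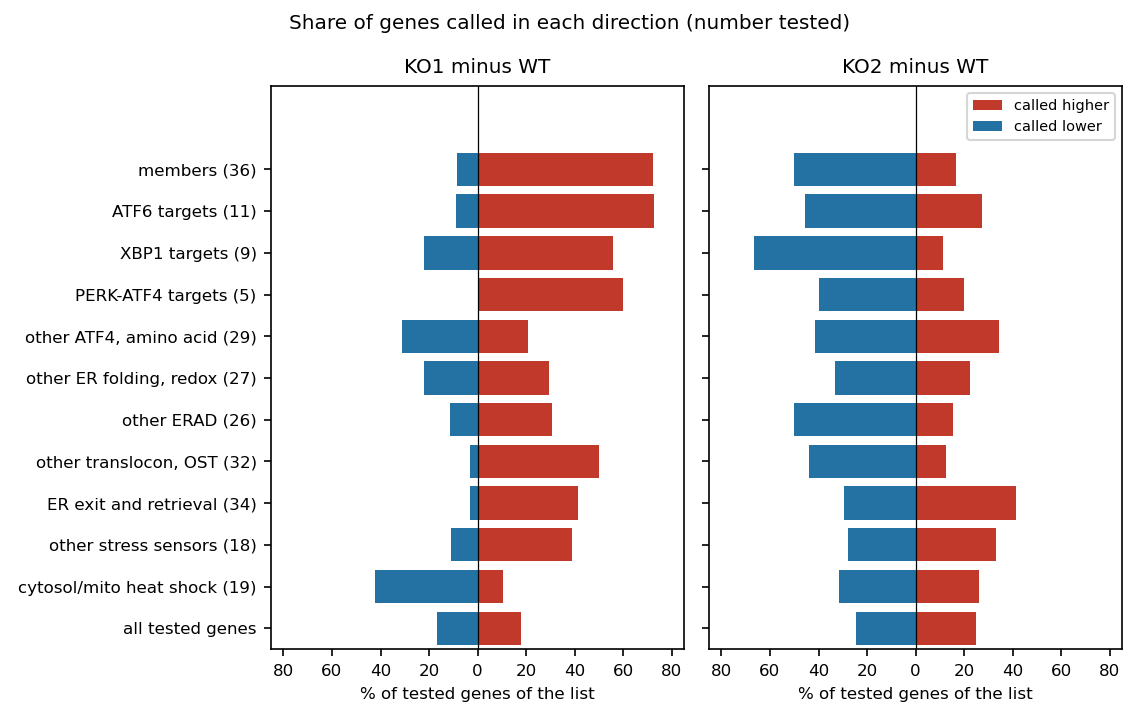
Share of the tested genes of each list called higher (red, to the right) or lower (blue, to the left) in KO1 minus WT and in KO2 minus WT, with the number tested in brackets and all tested genes in the bottom row. Members called higher made up 72.2% in KO1 beside 18.0% of all tested genes, and members called lower made up 50% in KO2 beside 24.7%.

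Other genes of the pathway, in lists that leave out the members, were counted in the same way, beside 18.0% of all tested genes called higher and 16.8% lower in KO1, and 24.7% each way in KO2. Of 32 further genes of the translocon, signal peptidase and oligosaccharyl transferase, 16 rose (50%) and 1 fell (3.12%) in KO1 (median 0.16), and 4 rose (12.5%) and 14 fell (43.8%) in KO2 (median -0.05). Genes of this list were named by the smallest p between the clones, not by the size of the difference. They were SRP14, a signal recognition particle subunit (0.24 in KO1 and -0.46 in KO2), SRPRA, its receptor (0.28 and -0.21), and the signal peptidase gene SEC11C (0.37 and -0.88), all 6 values called. Of 34 genes of ER exit and retrieval, 14 rose (41.2%) and 1 fell (2.94%) in KO1 (median 0.09), and in KO2, unlike the members, more rose than fell, with 14 higher (41.2%) and 10 lower (29.4%, median 0.07). LMAN1, which encodes the cargo receptor ERGIC-53, rose by 0.50 in KO1 and fell in KO2, at -0.52, and the p24 family gene TMED2 was called at 0.22 and -0.41. TMED3 of the same family was at 0.05 in KO1, which did not pass, and fell in KO2, at -0.70.

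Of 27 tested genes of other ER folding and redox enzymes, 8 rose (29.6%) and 6 fell (22.2%) in KO1 (median 0.09), and 6 rose (22.2%) and 9 fell (33.3%) in KO2 (median -0.05), shares not far from those of all genes. PPIB, which encodes the ER prolyl isomerase cyclophilin B, was at 191.6, 172.2 and 177.5 CPM in KO1, at 43.6, 43.1 and 41.8 CPM in KO2, and at 155.5, 158.7 and 141.2 CPM in WT. It fell in KO2, at -1.83 (adjusted p = 1.64e-12), and rose by 0.25 in KO1. FKBP10, a prolyl isomerase that acts on collagen, was at 2.15, 2.51 and 1.86 CPM in KO1, at 28.2, 30.3 and 24.9 CPM in KO2, and at 2.81, 3.24 and 3.29 CPM in WT. It rose by 3.17 in KO2 (adjusted p = 1.07e-11) and fell in KO1, at -0.51. ERP44, a thiol-dependent retention factor, rose by 0.48 in KO2 and was at 0.03 in KO1 without a call.

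Of 26 other genes of ER-associated degradation, 8 rose (30.8%) and 3 fell (11.5%) in KO1 (median 0.02), and 4 rose (15.4%) and 13 fell (50%) in KO2 (median -0.15). SELENOS, a selenoprotein of the retrotranslocation complex, was called at 0.18 in KO1 and -0.37 in KO2, and the peptide N-glycanase gene NGLY1 at 0.29 and -0.26. SEL1L3, a gene related to SEL1L by sequence, was at 9.59, 9.30 and 9.11 CPM in KO1, at 32.3, 31.6 and 31.7 CPM in KO2, and at 9.39, 8.59 and 10.1 CPM in WT, a rise of 1.77 in KO2 (adjusted p = 3.48e-11). Of 29 tested further ATF4 targets and amino acid response genes, 6 rose (20.7%) and 9 fell (31%) in KO1 (median -0.04), and 10 rose (34.5%) and 12 fell (41.4%) in KO2 (median 0.01). The growth factor gene VEGFA was called at 0.33 and -0.67, the asparaginyl-tRNA synthetase gene NARS at 0.32 and -0.55, and the serine synthesis gene PSPH fell in KO1, at -0.67, and was at 0.11 in KO2 without a call.

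Of 18 tested further stress sensors and factors, 7 rose (38.9%) and 2 fell (11.1%) in KO1, and 6 rose (33.3%) and 5 fell (27.8%) in KO2. They include EIF2AK4, the amino acid sensor kinase GCN2 (0.35 and -0.25), EIF2S1, the eIF2-alpha subunit (-0.43 and, without a call, 0.07), and TXNIP (0.24 and 0.80). Of 19 tested heat shock genes of the cytosol and mitochondria, 2 rose (10.5%) and 8 fell (42.1%) in KO1 (median -0.11), and 5 rose (26.3%) and 6 fell (31.6%) in KO2 (median 0.03). HSP90AA1, the cytosolic HSP90 gene, was called at -0.19 in KO1 and 0.42 in KO2, the mitochondrial chaperone gene HSPD1 at -0.13 and 0.65, and DNAJB1, a cytosolic J protein gene, at 0.15 and -0.71.

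Chromosomal neighbours of several members had median changes in the same direction as the member, and such shifts were seen in each clone. For each member the 20 nearest tested protein-coding genes with an average log2 CPM of 2 or more were taken, and the GC trend of each library was removed from both. In KO2 the neighbours of DNAJC10 on chromosome 2 had a median change of 0.54, beside 0.45 for DNAJC10 itself, and those of HSPA5 on chromosome 9 had 0.39, beside 0.22 for HSPA5. The neighbours of CALR on chromosome 19 had -0.58, beside -0.35 for CALR, those of EDEM1 on chromosome 3 had -0.42, beside -0.20, and those of PDIA3 on chromosome 15 had -0.36, beside -0.28. The neighbours of SSR1 on chromosome 6 were at -0.33 in KO2, beside -0.34 for SSR1, and those of EIF2AK3 on chromosome 2 were at -0.32, beside -0.43. In contrast, the neighbours of WFS1 were at 0.05 beside -1.08 for the gene, those of ATF3 at 0.09 beside -0.52, and those of SEC61B at 0.43 beside 0.004. The neighbours of HERPUD1 went the same way as the gene but less far, at -0.23 beside -0.81. In KO1 the neighbours of PDIA3 had a median of 0.27, beside 0.61 for the gene, and those of HYOU1 0.21, beside 0.75. The neighbours of EDEM1 in KO1 were at 0.10 beside 0.70, those of HSPA5 at -0.07 beside 0.44, and those of PDIA4 at 0.00 beside 0.53. The part of the chromosomal neighbourhood in these changes was not tested.

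**Figure D4:**
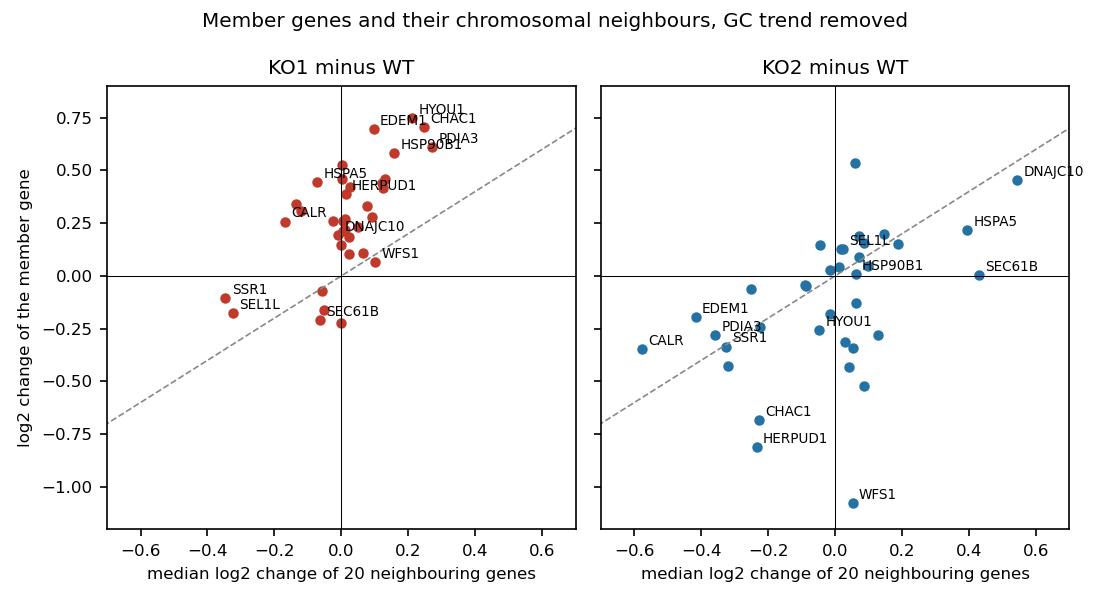
Log2 change of each tested member gene (vertical axis) against the median log2 change of its 20 nearest tested protein-coding genes (horizontal axis), GC trend removed, for KO1 minus WT and KO2 minus WT; the dashed line marks equal values. In KO1, 31 of 36 members lay above the line, and in KO2 16 lay above and 20 below. The same count over all tested genes is not given.

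Set against their neighbours, 31 of the 36 tested members were above and 5 below in KO1, with a median difference of 0.26. In KO2 16 were above and 20 below, with a median difference of -0.03. The same count over all tested genes is not given here. A split by neighbours within 0.1 of 0 was chosen after seeing the data. Where the neighbours' median lay within 0.1 of 0, 16 of 23 members rose and 3 fell in KO1 (median 0.23), and 5 of 21 rose and 8 fell in KO2 (median 0.01). Shares of all tested genes called after the GC removal are not given here. Without it, 18.0% of all tested genes were called higher and 16.8% lower in KO1, and 24.7% each way in KO2. The 5 of 21 that rose in KO2 were near that share. Between the clones, 14 of the 18 members with such neighbours were higher in KO1 and 0 were lower (median 0.27), beside 28 higher and 4 lower of all 36 tested members after the same GC removal. Without the removal, 23.9% of all tested genes were called higher and 24.9% lower in this contrast. The 4 members lower in KO1 than in KO2, namely DNAJC10, SEL1L, PPP1R15A and SEC61B, all had neighbours further than 0.1 from 0 in that contrast. So did 14 members that were higher in KO1. The neighbours' medians of the 4 were -0.55, -0.47, -0.14 and -0.50 in the same order. Those of HSPA5 (-0.41), PDIA6 (-0.10) and ATF4 (-0.17) were negative too, and these members were higher in KO1. SEC61B also lost its call as lower in KO1 than in KO2 without KO2 replicate 1 (-0.17) or KO2 replicate 2 (-0.18).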

How the data were processed

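RNA from 9 libraries was analysed, 3 each of KO1, KO2 and WT. The authors deposited raw read counts per gene symbol, 1 table per library, without normalization. The submitters' processing notes name HISAT2 and Trim Galore, and 3 builds (mm10, GRCm38 and hg38) with no role for each; the gene symbols are human. The sources used here give no counter, annotation, strand setting or rule for multiply mapped reads, so reads shared with pseudogenes or antisense genes cannot be told apart.

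Counts were filtered with filterByExpr, scaled with TMM and fitted with edgeR 4.0.16 in R 4.3.3 (quasi-likelihood, robust, 1 mean per group, all 9 libraries). Adjusted p-values are Benjamini-Hochberg over all 17759 tested genes. Standard errors were derived from the log2 change and its quasi-F statistic. Variation between libraries beyond counting noise, which edgeR terms biological, had a coefficient of 7.46%. Part or all of it may be technical. Libraries of the same group differed by more than counting noise in each case, with a chi-square of 5.85 to 28.7 times its degrees of freedom. A count of 0 allows up to 3 counts, 0.0309 to 0.0572 CPM by library, for counting error only. FPKM used exon lengths of GENCODE 29 (GRCh38), whose positions also gave neighbours. Alternatives used DESeq2 1.42.0, limma-voom (limma 3.58.1), other scalings, filters, a replicate block, a lowess GC correction with a span of 0.3 on the GC content of each gene's longest transcript, and each library left out. All 37 members were named. Other genes were up to 3 per list with the smallest p between KO1 and KO2, called, with libraries of the clones apart and a mean log2 CPM of at least 2. Of 299 list entries 6 matched by an older symbol. Members and lists were chosen with earlier results of these data known.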

Additional observations from a re-analysis of the deposited data

Results flagged for a closer look

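The changes of the clones from WT differed from each other for 31 of the 36 tested members, by the direct test of KO1 minus KO2 (edgeR's quasi-likelihood test, adjusted over all tested genes), in which the WT mean does not enter. Of all tested genes 48.9% were called in this contrast. The log2 differences, KO1 minus KO2, were greatest for CHAC1 (1.46), HERPUD1 (1.20), WFS1 (1.17), HYOU1 (0.99), DNAJB9 (0.90), EDEM1 (0.90), PDIA3 (0.90), ATF3 (0.71), EIF2AK3 (0.66), CREB3L2 (0.61), HSP90B1 (0.60), CALR (0.59) and PDIA4 (0.57). They were smaller for XBP1 (0.41), P4HB (0.37), DERL1 (0.35), MANF (0.32), PDIA6 (0.31), TRIB3 (0.31), DNAJC3 (0.31), SYVN1 (0.26), SSR1 (0.26), CANX (0.26), DNAJB11 (0.24), HSPA5 (0.23), ATF4 (0.21) and ATF6 (0.21). The sign was negative for DNAJC10 (-0.21), SEL1L (-0.26), PPP1R15A (-0.18) and SEC61B (-0.22).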

How the results depend on the processing

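Of the 36 tested members, 23 kept their call or lack of one in KO1 minus WT under all 19 alternatives, 27 in KO2 minus WT and 34 in KO1 minus KO2. Without single libraries, members called in KO1 numbered 21 to 26 higher and 0 to 3 lower, in KO2 6 higher and 16 to 19 lower, and between the clones 27 to 28 higher and 3 to 4 lower in KO1; the KO1 median ran from 0.24 to 0.30. All calls lost among those lower in KO1 were of CRELD2, SYVN1 and SEC61B. Shares of all tested genes called without single libraries, with the GC trend removed or with the replicate block are not given here. Changes in the members' counts under these settings therefore cannot be told apart from changes in calls over all genes. With the GC trend removed, 5 members were lower in KO1, beside 3 without the removal, and the KO2 median was -0.054 in place of -0.12. KO2 values changed sign for SDF2L1 (0.15), ATF4 (0.05) and ATF6 (-0.04) without a call. That of TRIB3 changed sign to 0.19 with a call. In an alternative chosen after seeing the data, the same removal with members whose neighbours lay within 0.1 of 0 left 16 higher and 3 lower in KO1, 5 higher and 8 lower in KO2, and 14 higher and 0 lower between the clones. Fewer members entered, and the shares of all tested genes called after this removal are not given here. With the replicate number as a replicate block, 23 members were higher in KO1 and 3 lower, the calls of P4HB, ATF4 and TRIB3 (0.13, 0.13 and 0.22) being lost, and the other counts stayed as they were. The numbers did not pair the libraries: 3 of 9 same-numbered pairs had a correlation of deviations over 0.1 (range -0.53 to 0.48), and the best match had the same number in 6 of 18 cases. WFS1 and CHAC1 had the widest errors, with an SE of 0.14 and 0.13 in KO1.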
